A study of Mus musculus with 2 samples.

Results

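The genes described here encode the proteins of the cytosolic ribosome, together with the genes that share their names. They were taken by symbol: every gene whose symbol starts with *Rpl* or *Rps* and a digit, plus *Rplp0*, *Rplp1*, *Rplp2* and *Rpsa*, leaving out pseudogene symbols, the copies *Rps27rt* and *Rpl6l*, and the kinases whose symbols start with *Rps6k*. With detection in more than 3 cells required, 85 genes of 17115 were members. Of these, 77 carry the standard names of ribosomal proteins, 31 in the small and 46 in the large subunit, and 8 are like-named genes. Most of the like-named genes are paralogs of a ribosomal protein gene, while *Rps19bp1* and *Rpl7l1* encode no protein of the mature ribosome. The cells were sorted from retinas of E14.5 mouse embryos carrying the transgene Tg(Lhx4::EGFP)KN199Gsat/Mmucd, in which EGFP is driven from *Lhx4* regulatory sequence and marks mainly early cone photoreceptors, so that a GFP− cell is one without detected reporter and not one without *Lhx4*. Tissue from 2 litters was pooled into 1 sort, and 1 droplet library was made from the GFP+ cells and 1 from the GFP− cells, both carrying the same transgene, so that gate and library cannot be told apart. Each value is a number of unique molecular identifiers (UMIs), each standing for 1 captured transcript read at its 3′ end. Levels are given as a share of all UMIs of a cell group or as counts per 1000000 UMIs (CPM).

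Ribosomal proteins are made in the cytoplasm and assembled with ribosomal RNA in the nucleolus into a small subunit, which decodes the messenger RNA, and a large subunit, which joins the amino acids. Their transcripts are among the most abundant of dividing cells and share a 5′ terminal oligopyrimidine (TOP) tract, a C followed by a run of C or T at the start of the transcript, through which growth signals set their translation and stability. In the developing retina, multipotent retinal progenitor cells (RPCs) divide and give rise through neurogenic RPCs to retinal ganglion cells (RGCs), amacrine and horizontal cells (ACs and HCs) and cones, which leave the cell cycle.

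A start annotated by RefSeq is shown for 4 members that the results turn on: *Rpl12*, *Rps12* and *Rpl22l1*, which were lower in every neuron group, and *Rpl27*, which was not. Each stretch is 30 bases of RefSeq sequence on the gene's strand, from 10 bases before the annotated start to 20 bases after it. In capitals is the longest run of a C and at least 4 following C or T bases that begins within 10 bases of that start. The positions on GRCm38.p6 are chr2:32961702-32961731 on the plus strand, chr10:23787190-23787219 on the minus strand, chr3:28805498-28805527 on the plus strand and chr11:101442235-101442264 on the plus strand.
Rpl12: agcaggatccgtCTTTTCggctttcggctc
Rps12: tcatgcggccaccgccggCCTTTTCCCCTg
Rpl22l1: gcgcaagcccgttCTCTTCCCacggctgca
Rpl27: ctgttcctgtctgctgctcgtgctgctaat
Such a run was found in *Rpl12*, *Rps12* and *Rpl22l1*, while the *Rpl27* window held none, which says only that these letters are not in this window. Of the 65 members with an entry in the RefSeq table, 39 (60%) held such a run within 10 bases of an annotated start on the gene's strand, compared with 34.4% of 27025 genes. Annotated starts can lie away from the start that cells use. In the GENCODE annotation the 4 genes shown start at chr2:32961559, chr10:23787275, chr3:28805436 and chr11:101442298, all outside the windows shown. Which start the cells use was not tested. Among the 62 matched members that could be compared, the median log2 ratio of differentiated RGC-like over multipotent RPC-like cells was −0.80 for the 36 with the run and −0.73 for the 26 without, and the quartiles of both overlapped (−0.93 to −0.61 and −0.91 to −0.61). The 85 genes were spread over 19 chromosomes, with 14 on chromosome 7 and 4 on the X chromosome, and all were annotated as protein coding.

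Cell groups were set by UMIs of marker genes, none of which is a member. After filtering, 3689 GFP+ cells with 15503658 UMIs and 3389 GFP− cells with 30094636 UMIs were kept, and 20 barcodes occurred in both libraries. The GFP− library held 1645 multipotent RPC-like, 384 neurogenic-like, 126 RGC precursor-like, 254 differentiated RGC-like, 307 AC/HC-like and 91 cone-like cells. Of the GFP+ cells, 3632 were cone-like. Markers that took no part in the rules were used to check these names, and most but not all were highest in the group they stand for. *Fgf15*, a progenitor gene, stood at 2253 CPM in the multipotent RPC-like and 268 in the neurogenic-like cells. The proliferation genes *Top2a* and *Mki67* were higher in the neurogenic-like cells, at 461 and 97.1 CPM, than in the multipotent RPC-like cells, at 251 and 78.7. *Gadd45a*, a gene of neurogenic RPCs, was as high in the RGC precursor-like (1851 CPM) as in the neurogenic-like cells (1915). *Gap43*, a growth cone gene, stood at 3076 CPM in the differentiated RGC-like cells, against 348 in the RGC precursor-like cells. *Onecut2*, a gene of early HCs and RGCs, stood at 682 CPM in the AC/HC-like cells, and *Slc32a1*, the vesicular transporter of inhibitory neurons, at 42.8 and at most 3.38 in the other named GFP− groups. *Gad2*, which makes the transmitter GABA, went against the label, with 58.4 CPM in the AC/HC-like and 103 in the RGC precursor-like cells. *Otx2*, a photoreceptor gene, stood at 1203 CPM in the GFP− and 1519 in the GFP+ cone-like cells, and at 544 in the neurogenic-like cells. *Gnat2* and *Lhx4*, the other cone checks, were both at 71.7 CPM in the GFP− cone-like cells, and at 174 and 142 in the GFP+ ones. The cone rule genes summed to 1904 CPM in the GFP− and 4730 in the GFP+ cone-like cells, and *Olig2*, *Neurog2* and *Atoh7* to 224 and 71.4. Over 8 markers of blood, vessel, microglia and pigment epithelium, the summed level was between 4.69 and 38.1 CPM in every group except the AC/HC-like cells, where it was 280 CPM. There 274 CPM came from *Cldn5*, while the vessel gene *Pecam1* stood at 1.84 CPM and *Hbb-bt*, *Csf1r* and *Tyrp1* were at 0.

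Ribosomal protein transcripts took the largest share in multipotent RPC-like cells and a smaller one in every neuron group. The members made up 30.0% (30.0 to 30.0%) of the UMIs of the 1645 multipotent RPC-like cells, where the interval is a 95% exact one that covers counting error only, as do all intervals here. In the neurogenic-like cells the share was 24.4% (24.3 to 24.4%), and in the RGC precursor-like cells it was 23.9% (23.8 to 24.0%). The lowest share in the GFP− library among the named groups was that of the differentiated RGC-like cells, at 17.6% (17.5 to 17.6%). These 3 groups run from a progenitor that has begun to express neurogenic factors to a neuron with neurofilament transcripts, but need not be 1 lineage. The photoreceptor gene *Otx2* stood at 544 CPM in the neurogenic-like cells, against 32.9 in the RGC precursor-like and 3.53 in the differentiated RGC-like cells. The AC/HC-like cells had 20.3% (20.2 to 20.3%) and the GFP− cone-like cells 20.3% (20.2 to 20.4%), values that did not differ beyond counting error. In the GFP+ cone-like cells the share was 17.3% (17.3 to 17.3%). With 1 library for each gate there is no replicate, so no test was made and the differences have no replicate check.

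**Figure D1:**
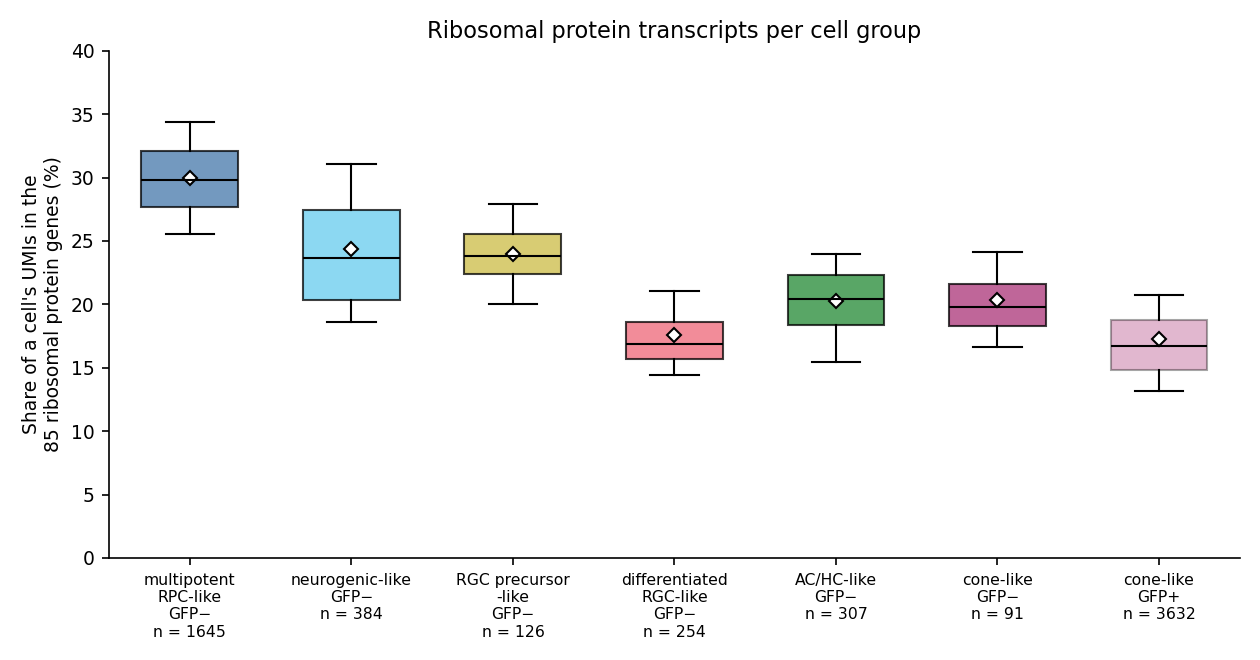
Share of each cell's UMIs that lay in the 85 ribosomal protein genes (y axis, percent) for 7 cell groups (x axis, n is cells). Boxes span the quartiles with the median as a line, whiskers reach the 10th and 90th percentiles of cells, and diamonds mark the share of the group's summed UMIs. Over cells of all depths, the multipotent RPC-like cells lie highest, with a median of 29.8%, and the GFP+ cone-like cells lie lowest, with 16.7%.

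Single cells followed the group shares, with wide overlap between neighbouring groups. The quartiles over cells were 27.7 and 32.1% in the multipotent RPC-like group and 15.7 and 18.6% in the differentiated RGC-like group, which therefore did not overlap. The neurogenic-like cells were the most spread, with quartiles of 20.4 and 27.5%, and they spanned those of the RGC precursor-like cells (22.4 and 25.6%). A share under 20% was found in 6 of 1645 multipotent RPC-like cells (0.365%). It was found in 9.52% of RGC precursor-like cells and 22.4% of neurogenic-like cells. Among neurons it was common, at 44.6% of AC/HC-like, 53.8% of GFP− cone-like, 86.0% of GFP+ cone-like and 86.2% of differentiated RGC-like cells.

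A share can be lower because fewer ribosomal protein transcripts were captured or because more of the others were, and the groups differed in this. A multipotent RPC-like cell gave on average 2799 member UMIs and 6536 other UMIs. A differentiated RGC-like cell gave 1959.8 member UMIs and 9201 others, so that the first number was lower and the second higher. A neurogenic-like cell gave 2071 and 6429.7, a difference almost wholly on the side of the members. Both numbers were lower in AC/HC-like cells, at 1435 and 5643, and in GFP− cone-like cells, at 1183 and 4644. The GFP+ cone-like cells were the shallowest, at 719 and 3439 UMIs. UMIs per cell also carry the capture rate of a droplet, which cannot be told apart from the RNA content of the cell.

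At matched depth the order of these groups was the same in the GFP− library, where the cone-like cells were too shallow to enter. Among cells with 8000 to 10000 UMIs, the share was 29.7% in the multipotent RPC-like, 24.3% in the neurogenic-like, 23.4% in the RGC precursor-like, 20.6% in the AC/HC-like and 17.9% in the differentiated RGC-like cells. Within the multipotent RPC-like group it stayed between 29.7 and 30.1% from 4000 to 14000 UMIs. In the neurogenic-like group it was 22.0% in the 21 cells with 4000 to 6000 UMIs and between 24.3 and 24.5% in the deeper cells. In the GFP+ cone-like cells the share was higher at each greater depth. It was 16.03% in cells with 2000 to 4000 UMIs, 17.8% at 4000 to 6000, 19.6% at 6000 to 8000 and 19.9% at 8000 to 10000. In that last bin the 55 GFP+ cone-like cells lay above the differentiated RGC-like cells, the reverse of the order over all cells. GFP− cone-like cells had 19.98% at 4000 to 6000 and 21.2% at 6000 to 8000 UMIs.

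**Figure D2:**
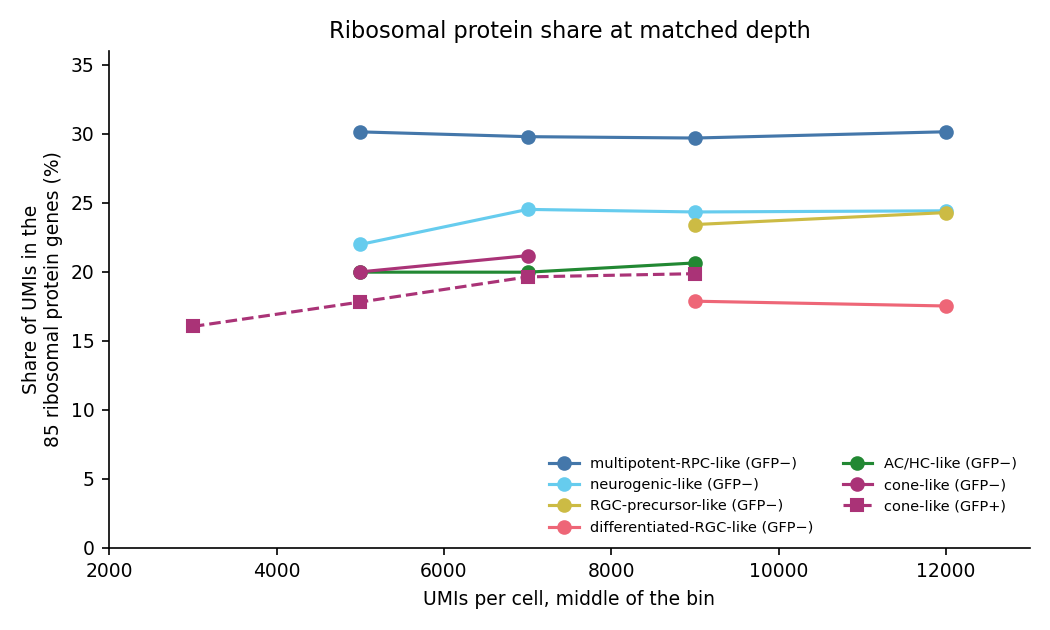
Share of UMIs in the 85 ribosomal protein genes (y axis, percent) against UMIs per cell (x axis, middle of each depth bin), drawn for bins with at least 20 cells. Circles with solid lines are GFP− groups and squares with a dashed line the GFP+ cone-like cells, which go from 16.03% in the shallowest bin to 19.9% in the deepest.

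To follow single members, each was compared between a neuron group and the multipotent RPC-like cells of the GFP− library as a ratio of CPM, among 82 members with at least 100 UMIs over both groups. A member is counted as past the limit at a ratio of 1.5-fold or more in either direction. The share of all genes past it is given for scale, but most of those genes have fewer UMIs than most members. Counting error alone takes more of such genes past a limit, so these shares are not a background of like abundance. All these comparisons share the multipotent RPC-like cells as their denominator, so they are set side by side and not read as separate evidence.

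In differentiated RGC-like cells, which hold neurofilament transcripts, every one of the 82 members compared was lower than in multipotent RPC-like cells, and the members summed stood at 0.586 (0.584 to 0.587) of their level there. Past 1.5-fold lower were 64 of 82 members and past 1.5-fold higher were 0, where 31.1% of all 9513 genes compared were past it in the lower and 22.1% in the higher direction. The median log2 ratio of the members was −0.77, beside −0.13 over all genes compared. By subunit, 27 of 31 small and 34 of 46 large subunit members were past the limit. The lowest ratios among members with at least 500 UMIs were those of *Rpl22l1* at 0.347 (0.328 to 0.366), *Rpl12* at 0.365 (0.348 to 0.382), *Rps2* at 0.426 (0.413 to 0.440), *Rpl36a* at 0.439 (0.425 to 0.453) and *Rpsa* at 0.439 (0.425 to 0.454). *Rpl12* encodes a protein at the base of the stalk of the large subunit, and *Rps2* one at the entry of the messenger RNA channel of the small subunit. The highest ratios were those of *Rps19bp1* at 0.944 (0.822 to 1.08), *Rpl27* at 0.865 (0.834 to 0.897), *Rpl10* at 0.824 (0.805 to 0.844), *Rpl21* at 0.764 (0.744 to 0.785) and *Rpl19* at 0.745 (0.724 to 0.766). The members did not move as 1 block: 35 had an interval wholly below the ratio of the summed members and 35 wholly above it. The limit on genes per cell removed many deep cells of this kind. Without it the group held 785 cells in place of 254, and the share was 16.2%.

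In RGC precursor-like cells, which express the RGC factor *Pou4f2* with few or no neurofilament transcripts, the members summed stood at 0.798 (0.795 to 0.801) of the multipotent RPC-like level. Past 1.5-fold lower were 8 of 82 members and past it higher were 0. All genes, most with fewer UMIs than most members, gave 27.1% lower and 18.0% higher, both above the members' shares. With TMM factors, which scale on the bulk of genes, 15 members were past 1.5-fold, and all genes gave 30.3% lower and 14.49% higher. The members' median log2 ratio was −0.30, beside −0.04 over all genes. *Rpl22l1* was far apart at 0.318 (0.292 to 0.346), followed by *Rpl7l1* at 0.540 (0.425 to 0.677), *Rplp1* at 0.581 (0.557 to 0.607), *Rpl12* at 0.631 (0.597 to 0.666) and *Rplp0* at 0.637 (0.619 to 0.656). *Rplp0* and *Rplp1* encode proteins of the stalk that recruits elongation factors. Among the highest were *Rpl27* at 1.14 (1.09 to 1.198) and *Rps19bp1* at 1.12 (0.921 to 1.34), followed by *Rps23* at 0.994 (0.967 to 1.02) and *Rps9* at 0.980 (0.951 to 1.01). From precursor-like to differentiated RGC-like cells the summed members had a further ratio of 0.734 (0.730 to 0.737), and 81 of 82 members were lower. The exception was *Rpl22l1*, at 1.09 (0.987 to 1.205), whose level was already low in the precursor-like cells. In this comparison the members' median log2 ratio was −0.45, beside −0.04 over all 4703 genes compared.

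In neurogenic-like cells, which express *Olig2*, *Neurog2* or *Atoh7*, the members summed stood at 0.812 (0.810 to 0.814) of the multipotent RPC-like level. The difference was shallow and broad. In all, 79 of 82 members were lower and 79 had an interval wholly under 1, yet 2 were past 1.5-fold lower and 0 past it higher, where all genes gave 17.6% lower and 12.0% higher. The members' median log2 ratio was −0.28, beside −0.01 over all genes. The members past the limit were *Rpl22l1* at 0.554 (0.532 to 0.577) and *Rpl7l1* at 0.663 (0.580 to 0.754), both like-named genes, followed by *Rpl12* at 0.697 (0.675 to 0.720), *Rps2* at 0.710 (0.693 to 0.727) and *Rps12* at 0.721 (0.702 to 0.741). *Rps19bp1* at 1.13 (1.001 to 1.27), *Rps27l* at 1.05 (1.003 to 1.10) and *Rpl27* at 1.01 (0.978 to 1.04) were highest, and *Rpl37a* was also among the upper members at 0.930 (0.915 to 0.945). With TMM factors *Rpl27* stood at 0.998, and the intervals of *Rps19bp1* (0.989 to 1.26) and *Rps27l* (0.991 to 1.09) held 1. Without the upper limit on genes these 2 intervals also held 1, at 0.980 to 1.21 and 0.996 to 1.08. In the depth window that of *Rps19bp1* held 1 (0.934 to 1.28) and that of *Rps27l* did not (1.01 to 1.14).

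In AC/HC-like cells, which express *Tfap2a*, *Tfap2b*, *Ptf1a* or *Prdm13*, the members summed stood at 0.676 (0.674 to 0.678) of the multipotent RPC-like level. Past 1.5-fold lower were 33 of 82 members and past it higher were 0, where all genes gave 23.0% lower and 24.4% higher. This count rested on the scaling: with TMM factors, which move every log2 ratio here by −0.20, 65 members were past it, and all genes gave 29.2% lower and 17.7% higher. The members' median log2 ratio was −0.54, beside 0.08 over all genes. *Rpl22l1* was lowest at 0.284 (0.266 to 0.304). *Rplp1* at 0.460 (0.444 to 0.477), *Rpl12* at 0.460 (0.439 to 0.483), *Rps12* at 0.464 (0.446 to 0.483) and *Rps19* at 0.488 (0.476 to 0.4998) followed, the last encoding a protein needed to mature the small subunit. At the other end stood *Rpl27* at 1.004 (0.966 to 1.04), *Rpl34* at 0.926 (0.901 to 0.952), *Rps19bp1* at 0.915 (0.781 to 1.07), *Rps3* at 0.889 (0.867 to 0.911) and *Rpl37* at 0.888 (0.868 to 0.909). *Rps3*, a small subunit protein that also acts in DNA repair, stood at 0.580 in the differentiated RGC-like cells. The part of the *Cldn5* transcripts of this group in these values was not tested.

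In GFP+ cone-like cells, compared across libraries, the members summed stood at 0.577 (0.576 to 0.578) of the level in the GFP− multipotent RPC-like cells. Past 1.5-fold lower were 58 of 82 members and past it higher were 0, where all 11053 genes compared gave 18.0% lower and 42.7% higher. The median log2 ratio was −0.81 over the members and 0.41 over all genes, so the members lay further under the bulk of genes than under 0. These medians are not independent, since all CPM of a group share 1 total and a lower member share raises the rest. TMM factors moved every log2 ratio by −0.38, which put 80 members past the limit and gave 27.0% lower and 27.97% higher over all genes. Lowest were *Rpl12* at 0.298 (0.291 to 0.305), *Rpsa* at 0.311 (0.305 to 0.316), *Rps12* at 0.328 (0.321 to 0.334), *Rpl36a* at 0.347 (0.341 to 0.353) and *Rplp1* at 0.349 (0.343 to 0.356). Highest were *Rpl27* at 1.08 (1.06 to 1.10), *Rps28* at 0.880 (0.870 to 0.890), *Rps27* at 0.817 (0.809 to 0.825) and *Rps19bp1* at 0.802 (0.741 to 0.868), followed by *Rpl36* at 0.791 (0.780 to 0.803). *Rpl27* stood at 0.830 with TMM factors. *Rpl27* and *Rps28* were also higher in the multipotent RPC-like cells of the GFP+ library than in those of the GFP− library. Cell group cannot be told apart from gate and library in their cone ratios here. Within the GFP− library, where gate and library do not enter, the 91 cone-like cells stood at 0.677 (0.673 to 0.681) of the multipotent RPC-like level, and 82 of 82 members were lower. Their median log2 ratio there was −0.53, beside 0.11 over all 9005 genes compared.

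**Figure D3:**
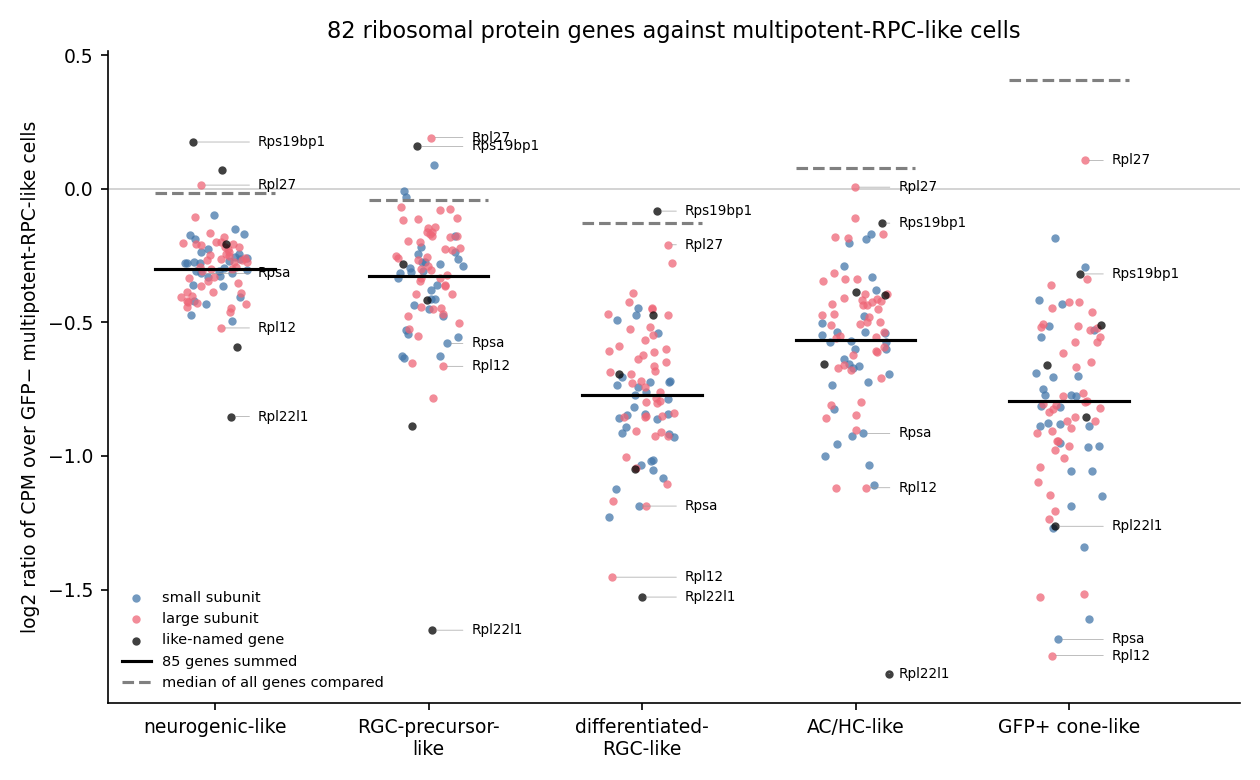
log2 ratio of CPM over the GFP− multipotent RPC-like cells (y axis) of 82 ribosomal protein genes in 5 cell groups (x axis), 1 point for each gene, coloured by subunit. Black lines mark the 85 genes summed and grey dashed lines the median of all genes compared. Nearly all points lie under the dashed line in each group, with *Rpl22l1* and *Rpl12* near the bottom and *Rpl27* near the top.

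Across the RGC precursor-like, differentiated RGC-like, AC/HC-like and GFP+ cone-like comparisons, 79 of the 82 members were lower in all 4, where 24.8% of the 9078 genes compared in all 4 were, and those that were not included *Rpl27* and *Rps19bp1*. With TMM factors it was 80, and *Rpl27* and *Rps19bp1* were not. Past 1.5-fold lower in all 4 were 7 members, namely *Rpl12*, *Rpl22l1*, *Rplp0*, *Rplp1*, *Rps12*, *Rps19* and *Rps4x*. This was a smaller share of the members than the 11.4% of all genes that met this condition, most with fewer UMIs. Past 1.5-fold in no direction in any of the 4 were 12 members, beside 18.0% of all genes, among them *Rpl19*, *Rpl21*, *Rpl27*, *Rpl29*, *Rpl34*, *Rpl36*, *Rpl36al*, *Rpl37*, *Rps7*, *Rps9* and *Rps19bp1*.

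The members' levels themselves spanned a wide range. In the multipotent RPC-like cells the median member stood at 3559 CPM and the highest, *Rpl41*, which encodes the shortest ribosomal protein, at 8054 CPM. Of the 153 genes of all kinds over 1000 CPM in these cells, 77 were members, and 15 of the 20 most abundant genes were members. Under 1000 CPM stood *Rpl29* at 738 CPM and 7 of the 8 like-named genes. Since each UMI stands for 1 transcript end, these levels are not divided by length, and the capture of each 3′ end was not tested.

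Of the genes for the stalk and its base, *Rplp0*, *Rplp1* and *Rpl12* were past 1.5-fold lower in all 4 neuron comparisons and *Rplp2* was not. *Rplp0*, the scaffold of the stalk, stood at 6271 (6231 to 6311) CPM in the multipotent RPC-like cells, 4785 in the neurogenic-like, 3995 in the RGC precursor-like, 2789 in the differentiated RGC-like, 3456 in the AC/HC-like, 3277 in the GFP− cone-like and 2661 (2635 to 2687) in the GFP+ cone-like cells. It was highest in progenitors and lowest in the GFP+ cone-like and differentiated RGC-like cells. *Rplp1*, 1 of the pair of small acidic stalk proteins, stood at 3150.0 (3122 to 3178) CPM in the multipotent RPC-like cells, 2346 in the neurogenic-like, 1832 in the RGC precursor-like, 1466 in the differentiated RGC-like, 1449.6 in the AC/HC-like, 1486 in the GFP− cone-like and 1100.5 (1084 to 1117) in the GFP+ cone-like cells. The levels of the AC/HC-like, differentiated RGC-like and GFP− cone-like cells lay close together and the GFP+ cone-like cells lay under them. *Rplp2*, the other of the pair, went from 4395 CPM in the multipotent RPC-like to 2313 in the differentiated RGC-like cells, a ratio of 0.526 (0.513 to 0.540), and to 1905 CPM in the GFP+ cone-like cells. *Rpl12*, at the base of the stalk, stood at 1852 (1831 to 1874) CPM in the multipotent RPC-like cells, 1291 in the neurogenic-like, 1169 in the RGC precursor-like, 676 in the differentiated RGC-like, 853 in the AC/HC-like, 790.1 in the GFP− cone-like and 552 (540.0 to 564) in the GFP+ cone-like cells. Its order of groups was that of *Rplp0*, with the GFP+ cone-like cells lowest.

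*Rpsa*, a small subunit protein also known as the laminin receptor precursor, stood at 3165 (3137 to 3193) CPM in the multipotent RPC-like cells, 2542 in the neurogenic-like, 2119.7 in the RGC precursor-like, 1389 in the differentiated RGC-like, 1678 in the AC/HC-like, 1486 in the GFP− cone-like and 983 (967 to 999) in the GFP+ cone-like cells. Its level in the GFP+ cone-like cells was the lowest of the 7 and lay under that of the GFP− cone-like cells beyond counting error. *Rpl5* and *Rpl11* bind the 5S ribosomal RNA and, outside the ribosome, the p53 regulator Mdm2. *Rpl5* had a ratio of 0.553 (0.525 to 0.582) and *Rpl11* one of 0.657 (0.641 to 0.674) in the differentiated RGC-like cells, and 0.538 (0.524 to 0.553) and 0.585 (0.577 to 0.593) in the GFP+ cone-like cells. Both lay near the summed members in the cones, while in the RGC-like cells *Rpl11* lay above them. *Rps27a*, made as a fusion with ubiquitin, stood at 0.557 (0.544 to 0.570) in the differentiated RGC-like and 0.615 (0.608 to 0.622) in the GFP+ cone-like cells.

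*Rpl27*, a large subunit protein, had the highest ratio of its subunit in each neuron group. It stood at 1376 (1357 to 1395) CPM in the multipotent RPC-like cells, 1389 in the neurogenic-like, 1572 in the RGC precursor-like, 1189.8 in the differentiated RGC-like, 1382 in the AC/HC-like, 1327 in the GFP− cone-like and 1481 (1462 to 1501) in the GFP+ cone-like cells. The multipotent RPC-like, neurogenic-like, AC/HC-like and GFP− cone-like levels did not differ beyond counting error, and the differentiated RGC-like cells were lowest. The GFP+ cone-like level comes from the other library, where *Rpl27* was also higher in the multipotent RPC-like cells. With TMM factors its ratio in the AC/HC-like cells was 0.877. *Rpl10*, which takes part in the last steps of large subunit maturation, had a different order of groups. It stood at 3448 (3419 to 3478) CPM in the multipotent RPC-like cells, 2539 in the neurogenic-like, 3113 in the RGC precursor-like, 2841 in the differentiated RGC-like, 2628 in the AC/HC-like, 2542 in the GFP− cone-like and 1829.9 (1808 to 1852) in the GFP+ cone-like cells. Among neuron groups the RGC-like cells were high for this gene and the GFP+ cone-like cells low, with ratios of 0.824 and 0.531 to the multipotent RPC-like cells. *Rps28* and *Rps27*, both of the small subunit, had the reverse order. *Rps28* had a ratio of 0.605 (0.591 to 0.620) in the differentiated RGC-like and 0.880 (0.870 to 0.890) in the GFP+ cone-like cells, and *Rps27* of 0.530 (0.518 to 0.542) and 0.817 (0.809 to 0.825). The GFP− cone-like cells lay between, at 0.775 (0.739 to 0.812) for *Rps28* and 0.747 (0.716 to 0.779) for *Rps27*.

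**Figure D4:**
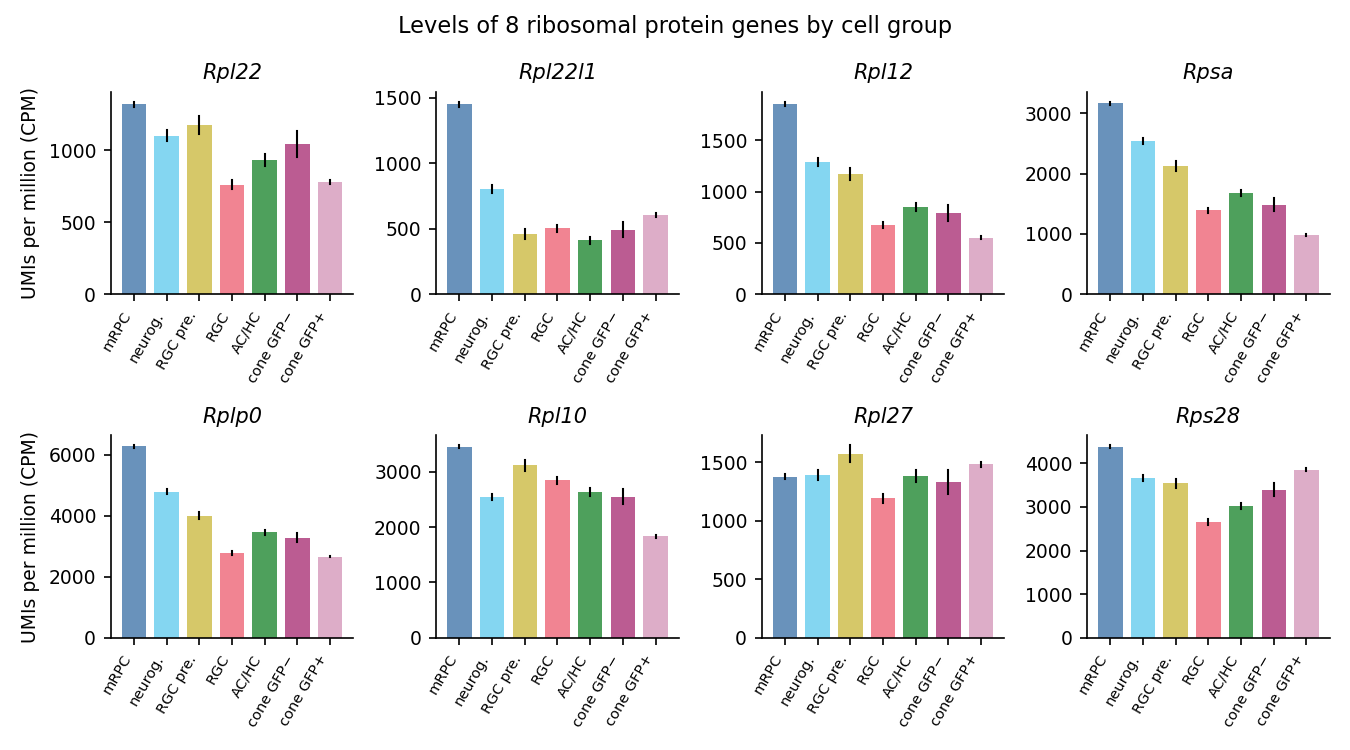
Level in CPM (y axis, from 0) of 8 ribosomal protein genes in 7 cell groups (x axis: mRPC, multipotent RPC-like; neurog., neurogenic-like; RGC pre., RGC precursor-like; RGC, differentiated RGC-like; AC/HC-like; and cone-like of both gates). Bars are summed CPM and black lines 95% exact Poisson intervals. *Rpl22l1* is low in every group other than mRPC and neurogenic-like, while *Rpl27* lies between 1189.8 and 1572 CPM throughout.

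Among the like-named genes, *Rpl22l1* had lower ratios than its parent in each neuron group. Its product is a paralog of Rpl22, a large subunit protein that binds RNA outside the ribosome too. *Rpl22l1* stood at 1452 (1433 to 1471) CPM in the multipotent RPC-like cells, 804 in the neurogenic-like, 462 in the RGC precursor-like, 503 in the differentiated RGC-like, 413 in the AC/HC-like, 492 in the GFP− cone-like and 605 (593 to 617) in the GFP+ cone-like cells. *Rpl22* stood at 1318 (1300.4 to 1337) CPM in the multipotent RPC-like cells, 1100.4 in the neurogenic-like, 1171 in the RGC precursor-like, 761 in the differentiated RGC-like, 932 in the AC/HC-like, 1041 in the GFP− cone-like and 776 (762 to 790.3) in the GFP+ cone-like cells. In multipotent RPC-like cells the paralog was thus the higher of the pair on this scale, and in every other group the parent was. The ratio of the RGC precursor-like to the multipotent RPC-like cells was 0.318 for *Rpl22l1* and 0.888 (0.841 to 0.938) for *Rpl22*. *Rpl36al*, a paralog of *Rpl36a*, had higher ratios than its parent. These were of 0.721 (0.682 to 0.762) in the differentiated RGC-like and 0.702 (0.681 to 0.723) in the GFP+ cone-like cells, where *Rpl36a* had 0.439 and 0.347.

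*Rps27l*, a paralog of *Rps27* and a p53 target, stood at 652 CPM in the multipotent RPC-like, 685 in the neurogenic-like and 404 in the differentiated RGC-like cells. In the neurogenic-like cells its ratio was 1.05 where that of *Rps27* was 0.811 (0.797 to 0.825). *Rps19bp1* encodes a binding partner of Rps19 and *Rpl7l1* a nucleolar factor of large subunit assembly, so neither is a protein of the mature ribosome. Over the 7 groups *Rps19* went from 6646 CPM down to 3203, its level in the differentiated RGC-like cells. *Rps19bp1* stood at 105 CPM in the neurogenic-like and 74.6 in the GFP+ cone-like cells, with 35 UMIs in all in the GFP− cone-like cells and an interval of the ratio that held 1 in the RGC precursor-like, differentiated RGC-like and AC/HC-like comparisons. *Rpl7l1* had its highest level in the multipotent RPC-like cells, 122 CPM, and its lowest in the differentiated RGC-like cells, 58.9 CPM. Its parent by name, *Rpl7*, had a ratio of 0.734 (0.714 to 0.753) there. *Rpl3l*, *Rpl10l* and *Rpl39l*, known from muscle or testis, were at 0 UMIs in the multipotent RPC-like cells, which allows up to 0.195 CPM at 3 counts, and could not be compared. The GFP+ cone-like cells held 9, 4 and 3 UMIs of these genes, and the AC/HC-like cells 1 UMI of *Rpl10l*. Their parents *Rpl3*, *Rpl10* and *Rpl39* stood at 1873, 1829.9 and 2279 CPM in the GFP+ cone-like cells.

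Across the gates, cone-like cells of the GFP+ library had a lower member share than those of the GFP− library, with a ratio of 0.852 (0.847 to 0.857), and 75 of 82 members were lower. Among cells of 4000 to 6000 UMIs the shares were 17.8 and 19.98%. *Rpsa* at 0.662 (0.616 to 0.712), *Rplp2* at 0.676 (0.641 to 0.712), *Rpl12* at 0.698 (0.633 to 0.772) and *Rpl7* at 0.718 (0.676 to 0.763) were among the lowest ratios. *Rpl22l1* at 1.23 (1.09 to 1.40), *Rps28* at 1.14 (1.08 to 1.19), *Rps19bp1* at 1.13 (0.808 to 1.63), *Rpl27* at 1.12 (1.04 to 1.204) and *Rps27* at 1.09 (1.05 to 1.14) had the highest. The median log2 ratio of CPM of all 9589 genes compared was 0.20, so the bulk of genes took a larger share in the GFP+ cone-like cells. That median was 0.12 with TMM factors and −0.30 on the scale of mean UMIs per cell. The GFP+ library also held 16 multipotent RPC-like cells, and these had a member share of 28.6% (28.4 to 28.9%), close to that of the GFP− cells of the same kind. *Rpl27* at 1.49 (1.32 to 1.68) and *Rps28* at 1.31 (1.22 to 1.41) were also higher there in the GFP+ library, while *Rpl22l1* stood at 0.799 (0.679 to 0.933). The gate and the library cannot be told apart in these values, and the cone-like cells of the gates also differed in cone and neurogenic markers. The part of that marker difference was not tested. Depth was matched only for the share of the cone-like cells, and its part in the single-gene ratios was not tested. With the barcodes found in both libraries left out, the log2 ratio of the share between the gates' cone-like cells was −0.23, as with them.

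Rows of pseudogenes and near copies, which were left out by the rule, moved with the library in the opposite direction. Over 18 such rows the summed level was 2212 CPM in the GFP− and 4889.6 CPM in the GFP+ cone-like cells, a ratio of 2.21. Of 13 rows with at least 100 UMIs over both groups, 12 had a ratio above 1. The other, *Rpl13a-ps1*, had 289 UMIs in the GFP+ and 0 in the GFP− cone-like cells, so it had no ratio. *Rps27rt*, a copy of *Rps27*, had a ratio of 2.55 and *Rpl27-ps3* one of 1.74. Reads can be split between a gene and such copies, so the gate ratios of *Rps27* and *Rpl27* are uncertain, and the part of the copies in them was not tested. Within the GFP− library the same rows summed were lower in RGCs, as the members were, with a ratio of 0.553 in differentiated RGC-like over multipotent RPC-like cells. There the level of *Rpl27-ps3* had a ratio of 0.848, near that of *Rpl27* itself.

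Subsets of a cell group also differed in their member share. Multipotent RPC-like cells with mitotic transcripts had a share of 28.8% and those without 30.9%, a ratio of 0.932 (0.930 to 0.934), and 77 of 82 members were lower. These differences were small, with 0 members past 1.5-fold. The members' median log2 ratio was −0.10, beside 0.0025 over all 8260 genes compared. On the scale of UMIs per cell the order was the reverse, with 2919 member UMIs in a cell with mitotic transcripts and 2734 in a cell without. *Rps2* had the lowest ratio, 0.837 (0.821 to 0.854), and *Rpl37*, *Rps26*, *Rps6* and *Rpl38* followed at 0.863 to 0.882. The 5 highest were like-named genes, from *Rps19bp1* at 1.15 (1.03 to 1.30) to *Rpl22l1* at 1.01 (0.982 to 1.04). Neurogenic-like cells with 5 or more mitotic UMIs had 22.9% and those with at most 1 had 26.3%. In cells of 6000 to 10000 UMIs these shares were 22.6 and 26.4%, so the difference was there at matched depth too.

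GFP+ cone-like cells with transcripts of the amino acid and unfolded protein stress response had a member share of 17.0%, beside 17.3% in the other GFP+ cone-like cells. The ratio was 0.981 (0.977 to 0.986), and it was reversed in sign in cells of 3000 to 6000 UMIs, with a log2 ratio of 0.0011. Single members stayed within narrow bounds, from *Rps19bp1* at 0.753 (0.576 to 0.969), *Rpl36a* at 0.837, *Rpl37a* at 0.851, *Rpl7a* at 0.853 and *Rpl41* at 0.862 to *Rps7* at 1.08, *Rps27* at 1.09, *Rpl17* at 1.10 and *Rpl5* at 1.11 (1.03 to 1.203). A wider gap was found with *Fabp7*, a fatty acid binding protein of progenitors and newborn cells. The 548 GFP+ cone-like cells with 3 or more *Fabp7* UMIs had a member share of 19.2%, and the 2137 cells with none had 16.7%. In cells of 4000 to 6000 UMIs these were 19.0 and 17.3%. AC/HC-like cells with a UMI of *Ptf1a*, a factor of AC and HC precursors, had 20.4% (286 cells) and those without had 18.7% (21 cells). The *Fabp7* and *Ptf1a* splits, and that of the neurogenic-like cells by mitotic UMIs, were chosen after the groups were seen.

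Genes that work with the ribosome differed in direction and size. *Fau*, which encodes a ribosomal protein fused to a ubiquitin-like protein, and *Gnb2l1*, a scaffold bound to the small subunit, are not members by symbol, and both were lower in each neuron group. In the differentiated RGC-like cells their ratios were 0.722 (0.704 to 0.741) and 0.619 (0.592 to 0.647), and in the GFP+ cone-like cells 0.649 and 0.529. Of 16 translation factors and other genes known to have TOP transcripts, 6 were past 1.5-fold lower in the differentiated RGC-like cells and 0 past it higher, with a median log2 ratio of −0.46, a count near the 31.1% lower over all genes. In the GFP+ cone-like cells it was 6 lower and 2 higher, with a median of −0.44, where all genes gave 18.0% and 42.7%. These genes were mixed. *Eef1d*, a subunit of the exchange factor of elongation factor 1, had a ratio of 0.211 (0.181 to 0.243) in the AC/HC-like and 0.247 (0.233 to 0.261) in the GFP+ cone-like cells. *Eef2*, which moves the ribosome along the messenger RNA, was higher, at 1.31 in the differentiated RGC-like, 1.58 in the AC/HC-like and 1.59 in the GFP+ cone-like cells.

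On the CPM scale, ribosome biogenesis factors and RNA polymerase I subunits had their lowest median ratio in the differentiated RGC-like cells. Of 59 such genes compared, 30 were past 1.5-fold lower in the differentiated RGC-like cells and 2 past it higher, with a median log2 ratio of −0.60, where all genes gave 31.1% and 22.1%. In the AC/HC-like cells it was 9 lower and 6 higher of 60, with a median of −0.06, both shares under the 23.0% and 24.4% of all genes. The GFP+ cone-like cells had 19 lower and 6 higher of 60, with a median of −0.25. All genes gave 18.0% and 42.7% there, with a median of 0.41, against −0.13 in the differentiated RGC-like cells. TMM factors move every log2 ratio by −0.38 in these cones and by −0.03 in the differentiated RGC-like cells. The gap between the medians of these groups thus rests on the scaling. In the GFP− cone-like cells the median was −0.24, beside 0.11 over all genes. The RGC precursor-like cells had 12 lower and 5 higher of 59, where all genes gave 27.1% and 18.0%. The neurogenic-like cells had 2 lower and 2 higher of 60 past the limit, where all genes gave 17.6% and 12.0%. By direction alone, 30 of these genes were lower and 30 higher there, with a median of 0.00, while 79 of 82 members were lower. *Ncl*, which encodes nucleolin, stood at 1.01 (0.959 to 1.05) in the neurogenic-like and 0.440 (0.409 to 0.472) in the differentiated RGC-like cells. Mitochondrial ribosomal protein genes, which encode a separate ribosome, had medians of 0.02, 0.02, −0.23, −0.02 and −0.05 in the neurogenic-like, RGC precursor-like, differentiated RGC-like, AC/HC-like and GFP+ cone-like comparisons. They thus lay near the bulk of genes in the GFP− groups and under its median in the cones, while the members lay under it in each. *Mycn*, a growth regulator that drives transcription of ribosomal protein genes, had no common direction. Its ratio was 0.811 (0.691 to 0.947) in the neurogenic-like, 0.946 (0.744 to 1.19) in the RGC precursor-like and 1.35 (0.996 to 1.78) in the GFP− cone-like cells. Higher levels were found in the other groups, with ratios of 2.11 (1.89 to 2.37) in the differentiated RGC-like, 1.98 (1.74 to 2.25) in the AC/HC-like and 1.87 (1.74 to 2.02) in the GFP+ cone-like cells.

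**Figure D5:**
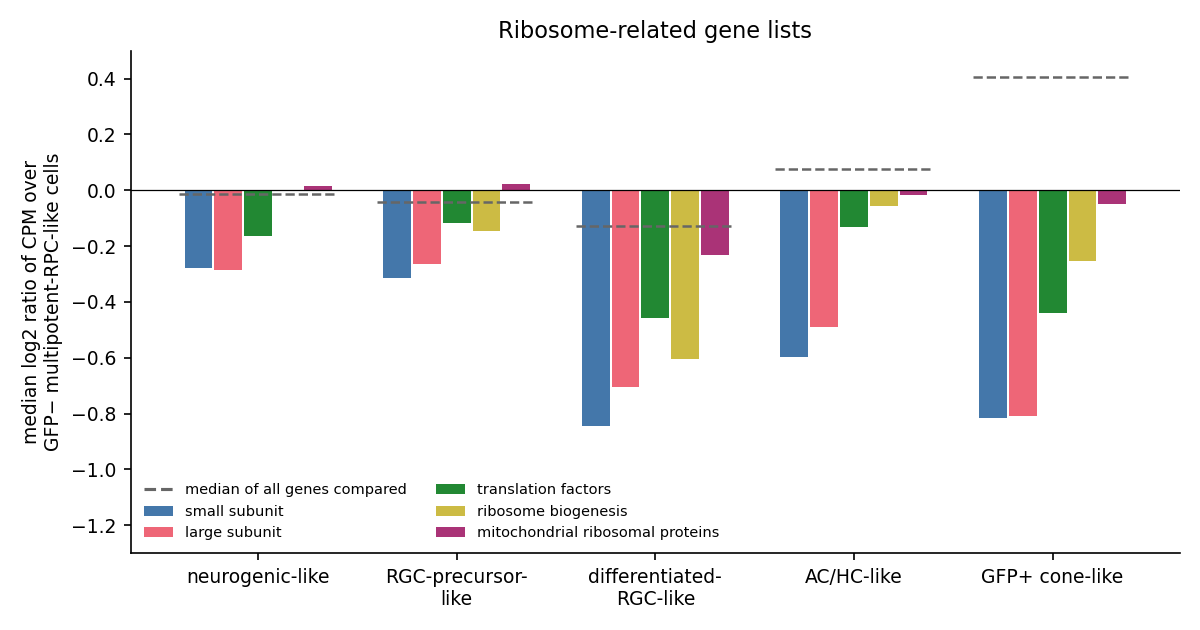
Median log2 ratio of CPM over the GFP− multipotent RPC-like cells (y axis) for 5 gene lists in 5 cell groups (x axis). Dashed lines mark the median of all genes compared. The bars of both ribosomal subunits lie under those of the mitochondrial ribosomal proteins in each group. On this scale the ribosome biogenesis bar is lowest in the differentiated RGC-like cells, at −0.60.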

How the data were processed

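The deposited files held the gene-by-cell UMI counts that the authors made with Cell Ranger 2.1.1 on mm10 (GRCm38), already limited to barcodes called as cells, 3728 for GFP+ and 4445 for GFP−. These counts are whole numbers without normalization, and a UMI stands for 1 captured transcript. Cells with at least 250 and below 3500 genes and a mitochondrial fraction below 0.25 were kept, since the stated limit was read as a fraction, and genes in more than 3 cells. No doublet caller was run. Cells meeting 2 or more of the 4 neuron rules were set aside, and the neurogenic and progenitor rules were applied to cells that met none. Cell groups followed from marker UMIs: at least 3 from at least 2 of *Crx*, *Gngt2*, *Gnb3*, *Pdc* and *Thrb* (cone-like). At least 2 of *Tfap2a*, *Tfap2b*, *Ptf1a* and *Prdm13* were needed for AC/HC-like, and at least 4 from at least 2 of *Nefl*, *Nefm*, *Sncg* and *Rbpms* for differentiated RGC-like. RGC precursor-like cells had at least 2 *Pou4f2* UMIs and at most 1 of the last 4 genes. Neurogenic-like cells had at least 3 from at least 2 of *Olig2*, *Neurog2* and *Atoh7*. Multipotent RPC-like cells had at least 8 from at least 3 of 6 progenitor genes, among them *Sfrp2*, *Hes1*, *Nr2e1*, *Ccnd1* and *Lhx2*, and at most 1 neurogenic UMI. Mitotic transcripts meant at least 5 UMIs of 9 genes against at most 1, and stress transcripts at least 3 UMIs from at least 2 of 6 genes.

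For each group the UMIs of its cells were added up, and levels are percent of all UMIs or counts per 1000000 (CPM). Levels and shares carry 95% exact Poisson intervals and ratios exact conditional binomial ones, which cover counting error only. With 1 library for each gate no p-value was computed, since cells are not replicates. Ratios were counted at 1.5-fold among genes with at least 100 UMIs over both groups. Genes named in a comparison were the 5 highest and 5 lowest ratios among members with at least 500 UMIs, with *Rplp0*, *Rplp1*, *Rplp2*, *Rpsa*, *Rpl5*, *Rpl11*, *Rps27a* and each like-named gene beside its parent. A few genes that this rule or the marker lists hold are not reported here. Members named for their order of groups (*Rpl10*, *Rps27*, *Rps28*) were picked from these after their values were seen. Comparisons of GFP− cone-like with multipotent RPC-like and of differentiated with precursor-like RGCs were added after the groups were seen. So were that of multipotent RPC-like cells between gates and the set-aside cells that met the AC/HC and differentiated RGC rules. The members, lists and rules were chosen with earlier results of these data known. Alternatives were other filters, cells thinned to 3000 UMIs for the marker rules, per-cell means, a depth window (6000 to 10000 UMIs, or 3000 to 6000 where GFP+ cells entered), TMM factors (edgeR 4.0.16 in R 4.3.3), UMIs per cell and other fold limits. Python 3.11.15 with scipy 1.17.1 and numpy 2.4.6 was used, and the calculation of intervals was tested on simulated data. Gene starts and sequences were RefSeq's on GRCm38.p6, with 65 of 85 members matched.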

Additional observations from a re-analysis of the deposited data

How the results depend on the processing

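All values are from 1 library for each gate, so they have no replicate error. No paired analysis was possible because each gate had 1 library and no test was made. Of 56 recomputed log2 ratios of the share, 53 kept their direction. The order below is neurogenic-like, RGC precursor-like, differentiated RGC-like and AC/HC-like over multipotent RPC-like cells, GFP+ cone-like over GFP− multipotent RPC-like cells, GFP+ over GFP− cone-like cells, progenitors with over without mitotic transcripts, and cones with over without stress transcripts. As reported the log2 ratios were −0.30, −0.33, −0.77, −0.56, −0.79, −0.23, −0.10 and −0.03. Without the upper limit on genes they were −0.28, −0.29, −0.86, −0.52, −0.76, −0.24, −0.12 and −0.042. With marker rules on cells thinned to 3000 UMIs the first 7 were −0.34, −0.36, −0.84, −0.62, −0.79, −0.21 and −0.13. With TMM factors they were −0.32, −0.43, −0.80, −0.76, −1.17, −0.30, −0.080 and −0.12. On the scale of mean UMIs per cell, which carries capture and depth, they were −0.43, −0.32, −0.51, −0.96, −1.96, −0.72, 0.095 and 0.074, so that the last 2 reversed. As means of per-cell shares, those that moved beyond counting error were −0.305 (neurogenic-like), −0.57 (AC/HC-like), −0.82 (GFP+ cone-like over progenitors), −0.25 (between gates), −0.11 (mitotic) and −0.00022 (stress). In 1 depth window the values that moved were −0.28 (neurogenic-like), −0.73 (differentiated RGC-like), −0.82 (GFP+ cone-like over progenitors), −0.21 (between gates) and −0.15 (mitotic), and the stress comparison reversed to 0.0011. The causes of these reversals were not tested. Leaving out barcodes found in both libraries, an alternative chosen after seeing the data, moved none of the 8 beyond counting error.

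The counts of members past the limit depended on the limit and, for precursors, ACs/HCs and GFP+ cones, on the scaling. At 2-fold they were 0 (neurogenic-like), 1 (RGC precursor-like), 16 (differentiated RGC-like), 5 (AC/HC-like) and 18 (GFP+ cone-like) of 82, all of them lower. Past it in either direction were 13.5, 26.2, 33.5, 27.4 and 39.2% of all genes. These shares pool lower and higher genes, so they are not a like background for members that were only lower. They were at the lower limit tried, 0.32 on the log2 scale, 29, 36 and 71 in the neurogenic-like, RGC precursor-like and AC/HC-like comparisons, again all lower. Of all genes, 52.1, 66.4 and 68.3% were past that limit in either direction. With TMM factors they were 15 in the RGC precursor-like and 65 in the AC/HC-like comparison, and in 1 depth window 1 in the neurogenic-like comparison. The other 19 of 30 recomputed counts stayed within 1.5 times the reported ones. Among these was the GFP+ cone-like count with TMM factors, at 80 against 58 as reported. The 16 GFP+ progenitor-like and 91 GFP− cone-like cells limit what the comparisons across gates can show.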

Other observations

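Cells outside the named groups also differed in their ribosomal protein share. In the GFP− library 114 cells met both the AC/HC and the differentiated RGC rules and were set aside; their share was 16.3%, and 85.1% of them lay under 20%. The 466 GFP− cells that met no rule had a share of 27.5%, with quartiles over cells of 24.2 and 30.7%. In the GFP+ library 20 cells met no rule, and their summed share was 26.5%. These cells were widely spread, with quartiles of 18.6 and 32.5%, and 30% of them lay under 20%. The 8 GFP+ AC/HC-like cells had a share of 17.6%, beside 20.3% in the GFP− cells of the same kind. Whether the set-aside cells are doublets was not tested.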
